A study of Mus musculus with 9 samples.

Results

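The genes described here are 31 mouse genes of cell-matrix adhesion: 16 integrin subunits, which are the receptors, and 15 extracellular matrix proteins, most of which are ligands of those receptors. They were picked by name and function from the 78275 gene identifiers of the count table. Of the 31, 28 had enough reads to be tested (14 integrins and 14 matrix genes) among 27773 tested genes. The 3 others were the integrins Itga7 (3 to 10 reads per library) and Itgb6 (0 to 2 reads) and the laminin chain Lamc3 (0 to 3 reads).

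RNA was sequenced from mCherry-positive cells sorted by flow cytometry from the forebrain of wild-type mouse embryos at E16.5, 48 h after in utero electroporation at E14.5. The plasmid carried mCherry and a microRNA-embedded short hairpin. The hairpin was a scrambled sequence in the control group (sh-NT), or was directed against the glypican Gpc4 (sh-Gpc4) or the glypican Gpc2 (sh-Gpc2), with 3 libraries per group. All groups therefore share electroporation, mCherry and a hairpin, and the cells of the 2 knockdown groups carry the wild-type genes. Electroporation reaches only some cells of the cortical wall, and the labels call the sorted cells cortical progenitors and neurons. The column names number the libraries 1, 3 and 4 in sh-Gpc4 and 1, 2 and 4 in the other groups, and these numbers are used here. No label ties the libraries to separate embryos or litters, so p-values reflect only how these libraries vary, which may be technical. In sorted bulk RNA, fewer cells of a type and less RNA per cell cannot be told apart.

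Integrins are cell-surface receptors made of 1 alpha and 1 beta subunit, and the pair decides which matrix protein is bound. In the developing cortex, radial glia fix their basal processes to the laminin-rich basement membrane under the meninges, and integrins that contain Itgb1 are known to take part in that attachment. Glypicans are heparan sulfate proteoglycans of the cell surface, and heparan sulfate chains bind matrix proteins such as fibronectin and laminins.

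The libraries held 48045603 to 66538437 reads. The targeted genes were lower in their own group without passing the test: Gpc4 differed by a log2 fold change of -0.53 ± 0.21 (SE, edgeR adjusted p = 0.488) in sh-Gpc4, and Gpc2 by -0.54 in sh-Gpc2 (adjusted p = 0.968). The Gpc2 level was also lower in sh-Gpc4 (log2 fold change -0.76 ± 0.33). Markers of the labelled cells were abundant, with 7 newborn-neuron genes summing to 8292 to 11105 CPM (read counts scaled to library size, with TMM factors) and 8 radial glia genes to 1578 to 2597 CPM in every library. Choroid plexus markers summed to at most 0.169 CPM. Microglial markers were present in every library, at 459 to 1487 CPM. On the first principal component, sh-Gpc4 library 3 and sh-Gpc2 library 4 stood apart from the rest, and genes with a GC content over 55% were low in both, with median log2 deviations from the 9-library mean of -0.37 and -0.23. Where a member's printed difference moved by over 1.5 times or changed sign without them, that value is given beside it. Without them, Gpc2 was at -0.29 in sh-Gpc2.

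The promoter windows of 2 integrins are shown first, because Itgb1 was the most abundant receptor gene and Itgav, which can pair with it, had the smallest p of all members in the comparison of sh-Gpc4 with sh-NT. Each window is the 250 bases before the gene's start in RefSeq, build GRCm38.p6, plus strand, 5′ to 3′. The Itgav window is chr2:83724147-83724396, and the Itgb1 window is chr8:128685404-128685653. Capitals mark the motif CGGAAG, the core bound by ETS factors, in Itgav and the GC box GGGCGG in Itgb1.
Itgav promoter: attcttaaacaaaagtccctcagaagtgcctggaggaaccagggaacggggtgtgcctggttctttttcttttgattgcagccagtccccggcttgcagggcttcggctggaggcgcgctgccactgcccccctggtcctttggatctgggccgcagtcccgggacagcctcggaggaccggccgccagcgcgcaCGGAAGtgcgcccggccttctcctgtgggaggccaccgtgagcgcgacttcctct
Itgb1 promoter: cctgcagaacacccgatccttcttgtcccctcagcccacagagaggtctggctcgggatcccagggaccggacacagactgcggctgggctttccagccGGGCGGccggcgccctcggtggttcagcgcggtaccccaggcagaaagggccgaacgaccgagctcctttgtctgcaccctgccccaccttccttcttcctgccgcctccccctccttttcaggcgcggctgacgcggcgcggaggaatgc
The tables used hold windows for 20 of the 31 members, 22 windows in all. Both strands were searched for 4 motifs, of which GGGCGG and CGGAAG can share bases. GGGCGG was found in 11 of the 22 windows and in 32.7% of all 32851 windows of the same length. CGGAAG was found in 3 of the 22 and in 13.6% of all windows, CCAAT in 6 and in 33.8%, and TATAAA in 0 and in 12.4%. The Itgav window had a GC content of 64.4% and held no GGGCGG, and the Itgb1 window had 68.0% GC and held no CGGAAG. These matches describe the letters only.

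Levels between genes are compared here as CPM per kilobase of annotated exon, in the sh-NT libraries. Among receptors, Itgb1, the beta subunit shared by most matrix-binding integrins, was at 47.1 ± 3.04 CPM per kb (SD, n = 3), 9.29 times the next gene. Itga6, an alpha subunit for laminin, followed at 5.07 ± 0.414 CPM per kb. Itgav (3.06 ± 0.126), Itgb5 (2.96 ± 0.747), Itga5 and Itgb8 came next, and the ranges of neighbours in that order overlapped. Itga3, another laminin-binding alpha subunit, was at 1.15 CPM per kb, and Itga4, Itga9, Itgb4, Itga8, Itga2, Itga1 and Itgb3 ran from 0.736 down to 0.0754 CPM per kb. Itga7, a muscle laminin receptor subunit, was at 0.0158 CPM per kb, and Itgb6, an epithelial subunit, had 0 reads in all sh-NT libraries.

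Among matrix genes, Sparc, which encodes a secreted collagen-binding glycoprotein, was highest at 20.3 ± 1.64 CPM per kb. Its relative Sparcl1 (10.5 ± 2.28) and fibronectin, Fn1 (9.14 ± 0.940), came next with overlapping ranges. The laminin chain Lamb2 was at 5.60 CPM per kb and the chondroitin sulfate proteoglycan Vcan at 3.76. Lamc1 (2.94) and Lamb1 (2.10), which form the common core of many laminin trimers, were higher per length than the alpha chains Lama1 (0.798), Lama5 (0.505), Lama2 (0.390) and Lama4 (0.0861).

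**Figure D1:**
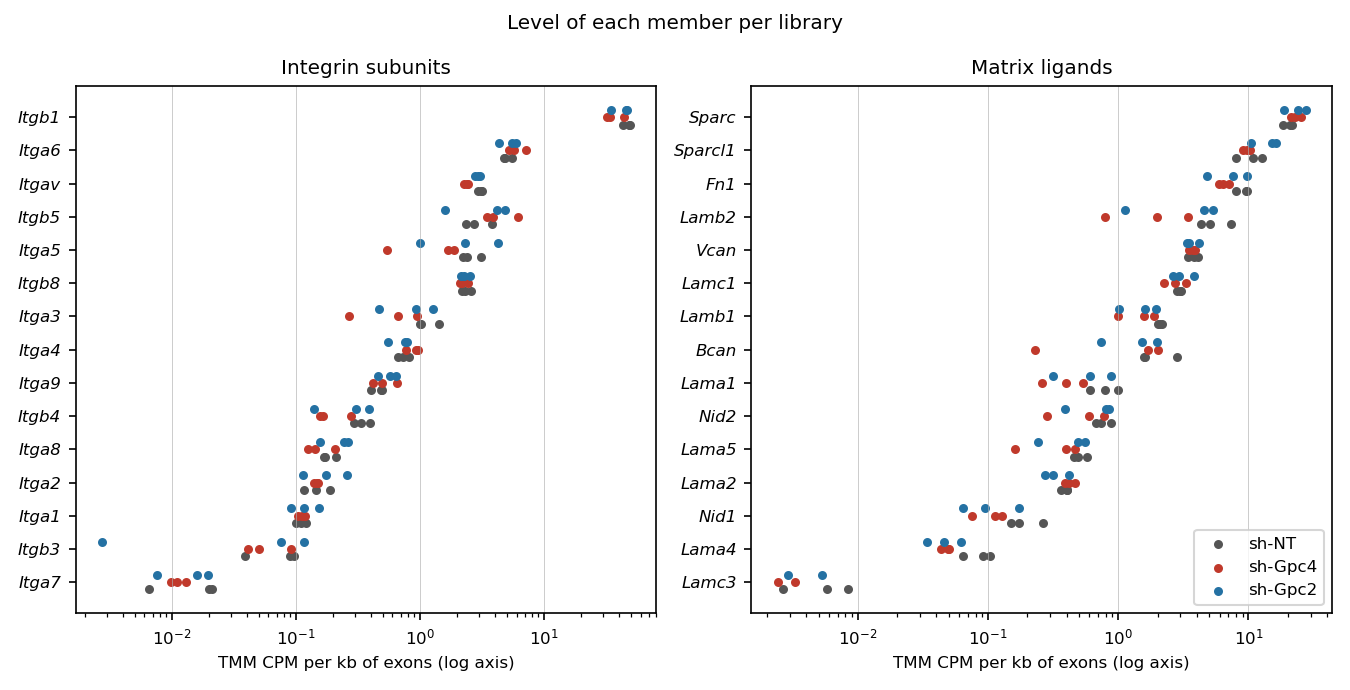
Level of each member in each library, in CPM per kilobase of exon on a log axis, with integrins and matrix genes in separate panels ordered by their sh-NT level and 1 point per library coloured by group. Itgb6 is left out because its sh-NT mean was 0. Values of 0 cannot be drawn on the log axis, so some libraries of Lamc3 have no point. Itgb1 and Sparc lie highest in their panels.

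In the comparison of sh-Gpc4 with sh-NT, most members of both lists had lower mean levels, and none passed edgeR's quasi-likelihood test with Benjamini-Hochberg adjustment. The lists were not tested against each other. Of the 14 tested matrix genes, 12 had a negative log2 fold change and the median was -0.50. Of the 14 tested integrins, 9 were negative and the median was -0.14. Together 21 of 28 (75.0%) were negative, against 47.2% of all tested genes, whose median was 0.02. In 10 of the 28 every sh-Gpc4 library was below every sh-NT library, a separation that 13.2% of all genes showed. In 0 of the 28 were all sh-Gpc4 libraries above, against 10.8% of all genes. Those 10 were Itgav, Itga3, Itga5, Itgb4, Lama1, Lama4, Lamb1, Lamb2, Fn1 and Nid1.

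The test called 0.0% of all genes (0, with 2657 at an unadjusted p under 0.05). DESeq2's Wald test called 45 genes (0.165%), 1 of them a member, Itgav, and limma voom called 0. The DESeq2 count was unstable: it was 0 without sh-NT library 4 or sh-Gpc4 library 3, 4 without sh-NT library 1 and 5 without sh-NT library 2. It was 782 without sh-Gpc4 library 1, 57 without sh-Gpc4 library 4, and 120, 102 and 740 without sh-Gpc2 libraries 1, 2 and 4. At an unadjusted p under 0.05, 7 members were lower and 0 were higher, beside 6.01% and 3.56% of all genes. The medians leaned on sh-Gpc4 library 3: without it they were -0.18 for matrix genes and -0.08 for integrins, with 10 of 14 negative in each. With both libraries that stood apart left out, they were -0.20 and -0.10, and 11 of 28 members then separated downward and 1 upward, beside 15.3% and 14.4% of all genes.

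**Figure D2:**
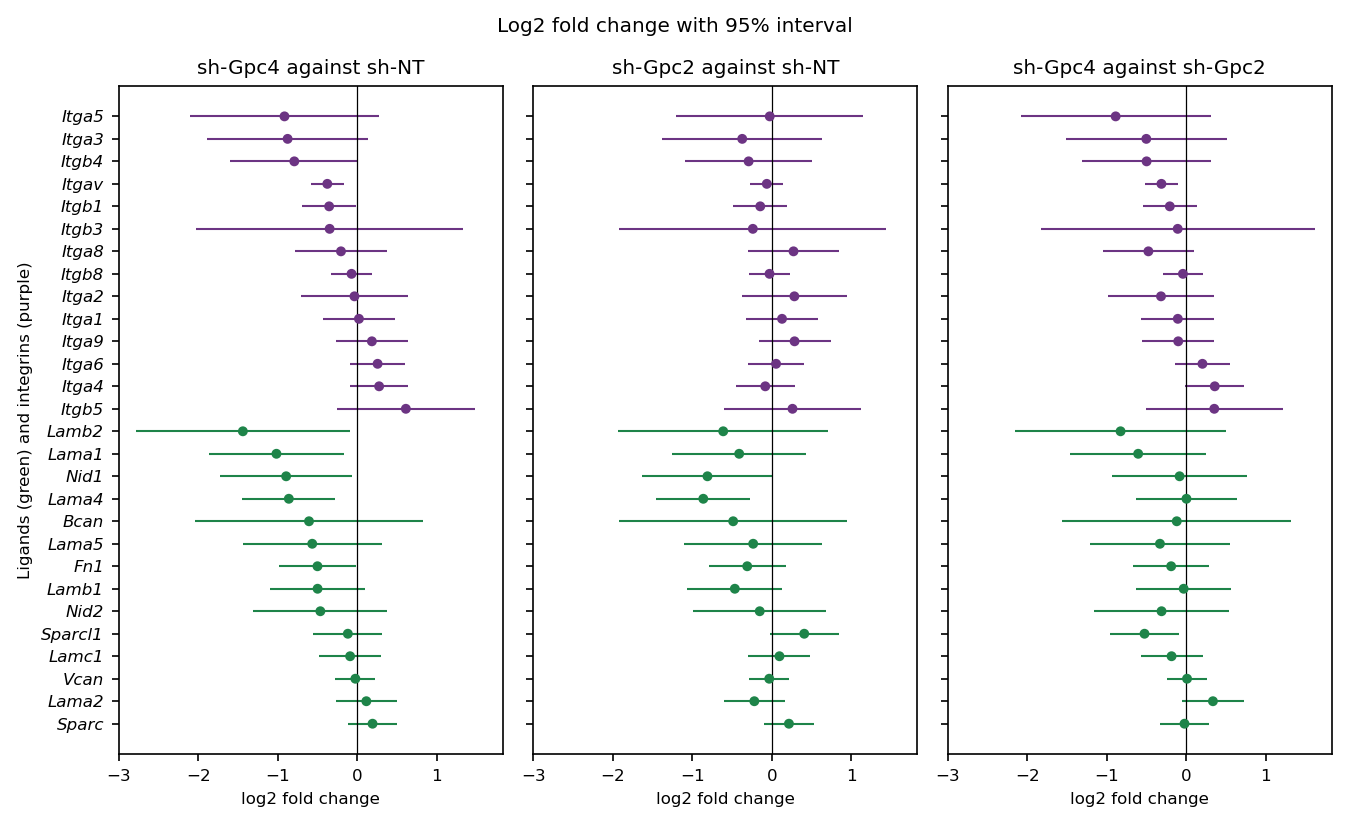
Log2 fold change of the tested members in the 3 comparisons, with 95% intervals from the edgeR fit and integrins and matrix genes grouped. In sh-Gpc4 against sh-NT, most matrix genes lie left of 0 and Itgav has one of the narrowest intervals, -0.58 to -0.17.

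Itgav encodes the alpha subunit of receptors for fibronectin, vitronectin and latent TGF-beta, and it pairs with several beta subunits. Its level was 31.4, 33.9 and 33.5 CPM in the sh-NT libraries, 25.6, 24.3 and 26.0 in those of sh-Gpc4, and 31.7, 32.7 and 30.1 in those of sh-Gpc2. The 3 sh-Gpc4 libraries were the 3 lowest of the 9, and the sh-Gpc2 libraries overlapped those of sh-NT. Against sh-NT, the sh-Gpc4 level was 0.769 times as high, a log2 fold change of -0.38 ± 0.09 (SE), with a 95% interval of -0.58 to -0.17. The edgeR adjusted p was 0.488, the voom adjusted p 0.0531 and the DESeq2 adjusted p 0.0440, and over its alternatives the adjusted p ran from 0.0440 to 0.963. The two-sided exact permutation p was 0.1, the smallest that 3 against 3 libraries can give.

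The DESeq2 call of Itgav depended on the libraries used. Leaving out each of the 9 in turn gave adjusted p values of 0.0213 to 0.950, and the call remained only without sh-Gpc2 library 1 or sh-Gpc2 library 4. It was lost without any 1 of the 3 sh-NT libraries, any 1 of the 3 sh-Gpc4 libraries, or sh-Gpc2 library 2 (adjusted p 0.0622). The size of the difference varied less: the edgeR log2 fold change lay between -0.41 and -0.34 over the same 9 removals. It was -0.36 without the 2 libraries that stood apart. A limma fit of log2 CPM after the GC trend was removed gave -0.52. The exons of Itgav on chr2:83724397-83806916 overlap 634 bases of Gm13684 on the opposite strand, whose own level was 0.692 to 1.27 CPM. Against sh-Gpc2, the sh-Gpc4 level of Itgav was also lower in every library, with a log2 difference of -0.31 ± 0.09 (edgeR adjusted p = 0.966, DESeq2 adjusted p = 0.784). In sh-Gpc2 against sh-NT the difference was -0.06 (95% interval -0.27 to 0.14).

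Itgb1 was at 178, 197 and 201 CPM in the sh-NT libraries, 138, 131 and 181 in those of sh-Gpc4, and 187, 192 and 142 in those of sh-Gpc2. One sh-Gpc4 library lay within the range of sh-NT, and one sh-Gpc2 library lay below that range. The log2 fold change was -0.36 ± 0.15 in sh-Gpc4 (adjusted p = 0.488, edgeR) and -0.15 ± 0.15 in sh-Gpc2 (adjusted p = 0.968). Without the 2 libraries that stood apart, which hold 2 of the 3 lowest Itgb1 values, the differences were -0.27 and -0.03. The GC content was 43.5% for Itgav and 44.8% for Itgb1.

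Laminin-binding and collagen-binding alpha subunits did not share a direction. Itga6, which pairs with Itgb1 or Itgb4, was at 43.2, 44.0 and 50.0 CPM in the sh-NT libraries, 46.8, 51.6 and 65.0 in those of sh-Gpc4, and 50.1, 39.0 and 53.2 in those of sh-Gpc2. The 3 groups overlapped, with a log2 fold change of 0.25 ± 0.15 in sh-Gpc4. Itga3 had a log2 fold change of -0.88 ± 0.45, and its lowest library was sh-Gpc4 library 3, at 1.53 CPM against 3.80 to 8.13 CPM in the other libraries of sh-NT and sh-Gpc4. Without the 2 libraries that stood apart, the Itga3 difference was -0.52. The collagen receptor subunits Itga1 and Itga2 differed by 0.02 and -0.04 (-0.04 and -0.05 without the 2 libraries) and lay between 0.812 and 2.86 CPM.

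The RGD-binding alpha subunits, named for the short peptide motif of fibronectin that they recognise, are Itgav, Itga5 and Itga8, and all 3 had negative values in sh-Gpc4. Itga5, the main fibronectin receptor subunit, had a log2 fold change of -0.92 ± 0.53, and -0.54 without the 2 libraries. Itga8, which binds nephronectin, was at 1.24, 1.54 and 1.27 CPM in the sh-NT libraries, 0.919, 1.53 and 1.05 in those of sh-Gpc4, and 1.92, 1.79 and 1.16 in those of sh-Gpc2. The groups overlapped in all comparisons. The log2 difference of Itga8 was -0.48 ± 0.25 between the 2 knockdown groups (edgeR adjusted p = 0.966) and 0.27 in sh-Gpc2 against sh-NT, and without the 2 libraries these were -0.91 and 0.45.

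Itga4 and Itga9, related alpha subunits that bind fibronectin and other ligands at sites other than RGD, both had positive values in sh-Gpc4. Itga4 was at 10.3, 11.4 and 9.25 CPM in the sh-NT libraries, 10.8, 13.0 and 13.5 in those of sh-Gpc4, and 10.9, 7.71 and 10.5 in those of sh-Gpc2. The highest values of the 9 libraries were in sh-Gpc4. The log2 difference of Itga4 was 0.27 ± 0.16 against sh-NT and 0.36 ± 0.16 against sh-Gpc2. Itga9 was at 3.72, 3.11 and 3.77 CPM in the sh-NT libraries, 3.20, 3.81 and 4.99 in those of sh-Gpc4, and 4.96, 3.53 and 4.42 in those of sh-Gpc2, with log2 fold changes of 0.18 and 0.28 in the knockdown groups.

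The beta subunits other than Itgb1 differed in direction. Itgb4, the partner of Itga6 in hemidesmosomes, was at 2.35, 2.78 and 2.07 CPM in the sh-NT libraries, 1.94, 1.15 and 1.09 in those of sh-Gpc4, and 2.74, 2.15 and 0.977 in those of sh-Gpc2. Every sh-Gpc4 library was below sh-NT, and the log2 fold change was -0.79 ± 0.36 (edgeR adjusted p = 0.488, voom adjusted p = 0.0531). Itgb5, a vitronectin receptor subunit, was at 9.69, 8.39 and 13.5 CPM in the sh-NT libraries, 12.3, 13.7 and 22.1 in those of sh-Gpc4, and 14.8, 5.70 and 17.4 in those of sh-Gpc2. The Itgb5 log2 fold change in sh-Gpc4 was 0.61 ± 0.39, and the groups overlapped. The sum of 9 microglial markers was 777, 840 and 1183 CPM in the sh-NT libraries, 1052, 940 and 1487 in those of sh-Gpc4, and 1350, 459 and 1290 in those of sh-Gpc2, so the libraries with the lowest and the highest sum were also those with the lowest and the highest Itgb5. Those libraries, sh-Gpc2 library 2 and sh-Gpc4 library 4, were also the lowest and the highest for Itga4 (7.71 and 13.5 CPM). The same held for Itga6 (39.0 and 65.0 CPM). The part of microglial RNA in the levels of Itgb5, Itga4 and Itga6 was not tested. Itgb8, a TGF-beta-activating partner of Itgav that radial glia express, lay between 23.4 and 28.4 CPM in all libraries, with a log2 fold change of -0.07 in sh-Gpc4. Itgb3, known from platelets, lay between 0.0161 and 0.689 CPM.

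**Figure D3:**
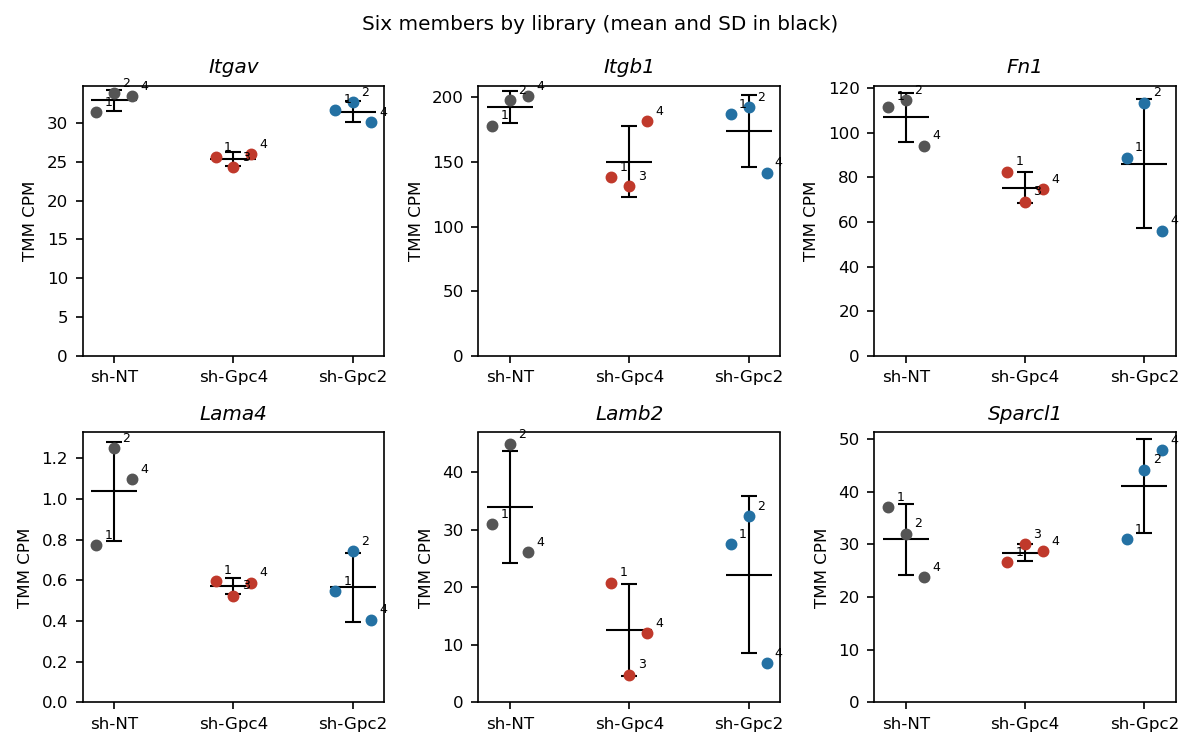
CPM by library for 6 members, 1 panel each on its own scale, with points for libraries and the group mean and SD in black. The sh-Gpc4 points of Itgav lie below those of both other groups, while the points of the groups overlap for Itgb1.

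Of the 7 tested laminin chains, 6 had a negative log2 fold change in sh-Gpc4 (median -0.57), beside 47.2% of all genes. All sh-Gpc4 libraries were below sh-NT for 4 of the 7, a separation that 13.2% of all genes showed. None passed the edgeR test, and Lama5 and Lamc1 overlapped sh-NT. Lama4, an alpha chain of blood vessel basement membranes, was at 0.772, 1.25 and 1.10 CPM in the sh-NT libraries, 0.599, 0.525 and 0.589 in those of sh-Gpc4, and 0.547, 0.742 and 0.407 in those of sh-Gpc2. Every knockdown library was below every sh-NT library. The log2 fold change was -0.86 ± 0.26 in both knockdown groups (edgeR adjusted p = 0.488 and 0.968), from 20 to 74 reads per library. Lama1, an alpha chain of early embryonic basement membranes, was at 7.68, 9.67 and 5.84 CPM in the sh-NT libraries, 5.17, 2.49 and 3.81 in those of sh-Gpc4, and 5.84, 8.52 and 3.03 in those of sh-Gpc2. The sh-Gpc4 libraries lay below sh-NT and the sh-Gpc2 libraries did not, and the log2 fold change in sh-Gpc4 was -1.02 ± 0.38.

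Lamb2, a beta chain of pial and vascular basement membranes, was at 30.996, 44.9 and 26.2 CPM in the sh-NT libraries, 20.9, 4.83 and 12.02 in those of sh-Gpc4, and 27.5, 32.4 and 6.80 in those of sh-Gpc2. This was the widest difference among the members in sh-Gpc4, a log2 fold change of -1.44 ± 0.60, and the 2 lowest libraries were the 2 that stood apart. Without them the difference was -1.06 in sh-Gpc4 and -0.20 in sh-Gpc2, against -0.61 with them in sh-Gpc2. Lamb1 had a log2 fold change of -0.50 ± 0.27 in sh-Gpc4 and -0.47 ± 0.27 in sh-Gpc2, and was below sh-NT in every library of both. It was at -0.29 and -0.26 without the 2 libraries. Lama5 was at -0.57, Lamc1 at -0.09 and Lama2 at 0.11 in sh-Gpc4, and without the 2 libraries at -0.24, 0.04 and 0.16. Lama2, an alpha chain best known from muscle, was at 5.92, 6.63 and 6.58 CPM in the sh-NT libraries, 7.53, 6.36 and 6.80 in those of sh-Gpc4, and 5.14, 4.44 and 6.86 in those of sh-Gpc2, with overlapping groups.

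Fn1, the ligand of the Itga5 and Itgav receptors, was at 112, 114 and 94.2 CPM in the sh-NT libraries, 82.5, 69.1 and 74.5 in those of sh-Gpc4, and 88.8, 113 and 56.1 in those of sh-Gpc2. The sh-Gpc4 libraries lay below all of sh-NT, and the sh-Gpc2 libraries spread from below all sh-Gpc4 values to within those of sh-NT. The log2 fold change of Fn1 was -0.50 ± 0.22 in sh-Gpc4 (edgeR adjusted p = 0.488, voom adjusted p = 0.0531) and -0.31 ± 0.22 in sh-Gpc2. Without the 2 libraries that stood apart it was -0.45 and -0.09.

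Nidogens link laminin networks to collagen IV. Nid1 was at 1.05, 1.82 and 1.20 CPM in the sh-NT libraries, 0.779, 0.525 and 0.884 in those of sh-Gpc4, and 0.653, 1.19 and 0.448 in those of sh-Gpc2. Its sh-Gpc4 libraries were all below sh-NT, with log2 fold changes of -0.90 ± 0.37 in sh-Gpc4 and -0.81 ± 0.37 in sh-Gpc2. Nid2 was at -0.47 and -0.15, and without the 2 libraries at -0.16 and 0.11. Beside the vascular members Lama4 and Nid1, all 6 mural cell markers had negative log2 fold changes in both comparisons. Their sum was 20.02 to 26.7 CPM in sh-NT, 9.43 to 13.9 CPM in sh-Gpc4 and 8.34 to 20.4 CPM in sh-Gpc2. The lowest mural sums, 9.43 and 8.34 CPM, were those of the 2 libraries that stood apart. The other libraries were at 13.9 and 12.4 CPM in sh-Gpc4 and at 17.0 and 20.4 CPM in sh-Gpc2. Of 7 endothelial markers, 6 were tested and 5 were negative in each comparison, while their sum overlapped (4.09 to 9.89 CPM in sh-NT, 5.45 to 7.81 CPM in sh-Gpc4 and 5.71 to 7.75 CPM in sh-Gpc2). Markers of other cell types moved as well. Of 4 oligodendrocyte precursor markers, 3 were tested and all 3 were negative in sh-Gpc4 (median -1.69), with sums of 4.59 to 14.9 CPM in sh-NT, 1.02 to 4.37 CPM in sh-Gpc4 and 4.08 to 13.5 CPM in sh-Gpc2, and Sox10 was under 0.1 CPM in every library. All 5 GABAergic markers were negative in sh-Gpc4 (median -2.36), with overlapping sums of 4.42 to 38.0, 4.17 to 5.37 and 6.47 to 8.99 CPM in the same order. The 38.0 CPM was in sh-NT library 1 alone, and sh-NT libraries 2 and 4 were at 6.95 and 4.42 CPM. The part of these cell types in the matrix values was not tested. Meningeal fibroblasts are another possible source of basement membrane RNA, and their part was not tested either. Of 6 meningeal markers, 4 were tested, and 2 were negative and 2 positive in sh-Gpc4 (median 0.73). Their sums overlapped, at 2.95 to 4.68 CPM in sh-NT, 2.38 to 13.2 CPM in sh-Gpc4 and 2.10 to 5.41 CPM in sh-Gpc2. The 13.2 CPM was in sh-Gpc4 library 1 alone, and no other library exceeded 5.41 CPM. Foxc1 was under 0.1 CPM in every library.

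The 4 remaining matrix members, secreted glycoproteins and proteoglycans, overlapped between sh-Gpc4 and sh-NT. Sparc was at 78.3, 82.0 and 69.9 CPM in the sh-NT libraries, 81.0, 86.3 and 95.3 in those of sh-Gpc4, and 71.3, 91.6 and 104 in those of sh-Gpc2, with log2 fold changes of 0.19 and 0.21 and overlapping groups (0.19 and 0.07 without the 2 libraries). Sparcl1, an astroglial secreted protein, was at 37.0, 32.0 and 23.7 CPM in the sh-NT libraries, 26.6, 30.0 and 28.7 in those of sh-Gpc4, and 30.9, 44.2 and 47.9 in those of sh-Gpc2. The Sparcl1 libraries of the 2 knockdown groups did not overlap, with a log2 difference of -0.53 ± 0.19 for sh-Gpc4 against sh-Gpc2 (edgeR adjusted p = 0.966), and against sh-NT the values were -0.12 and 0.41 (-0.17 and 0.27 without the 2 libraries). The lectican proteoglycans Vcan and Bcan were at -0.03 ± 0.11 and -0.61 ± 0.64 in sh-Gpc4. Bcan was at 0.930 CPM in sh-Gpc4 library 3 against 2.99 to 11.4 CPM elsewhere, and without the 2 libraries Bcan was at -0.12 and Vcan at 0.0074.

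**Figure D4:**
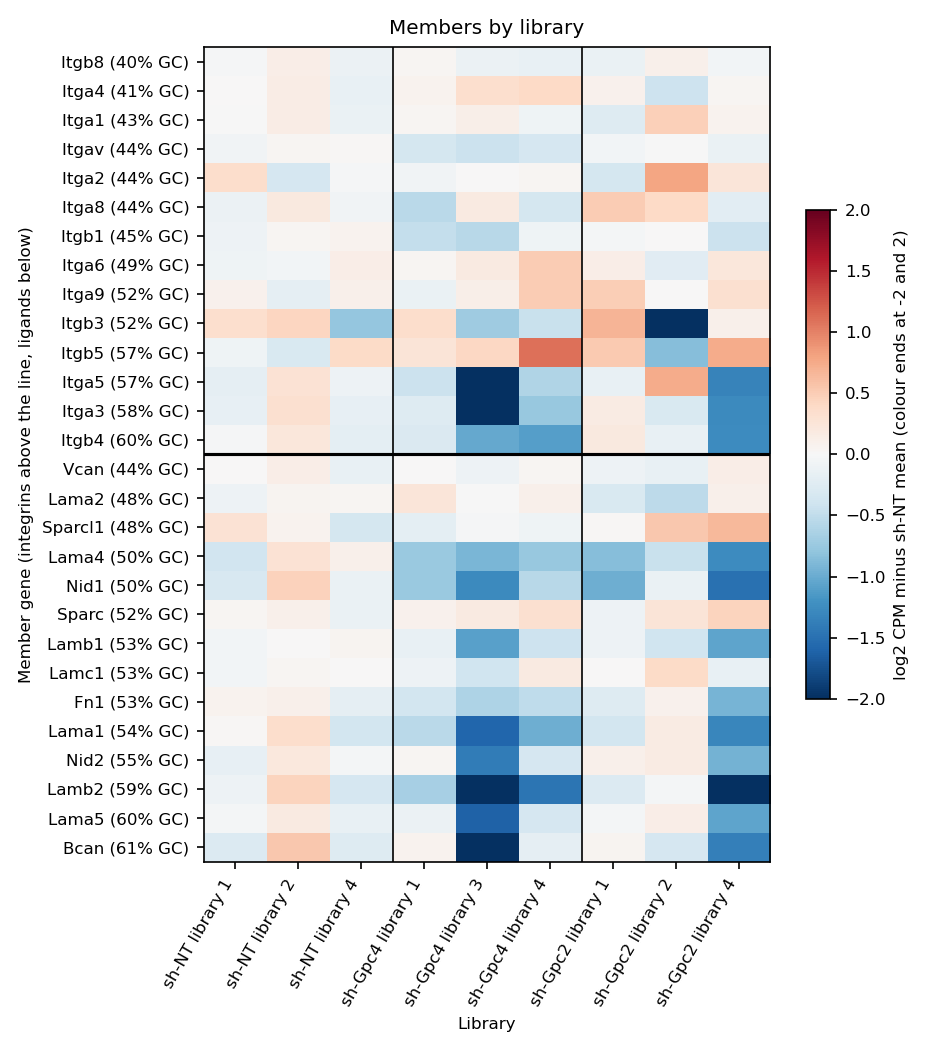
Log2 CPM of each tested member in each library minus its sh-NT mean, with integrins above the line and matrix genes below it, each ordered by GC content (in brackets), and with libraries in columns by group. Red is higher and blue lower than the sh-NT mean, and colours end at -2 and 2. The deepest blue cells are mostly those of GC-rich members in sh-Gpc4 library 3 and sh-Gpc2 library 4, while Itgav is evenly pale blue in the 3 sh-Gpc4 libraries.

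In sh-Gpc2 against sh-NT no member passed the test. Of the integrins, 8 of 14 were negative with a median of -0.03, and of the matrix genes 11 of 14 with a median of -0.27, beside 49.3% negative and a median of 0.00 over all genes. Only Lama4 and Lamb1 separated from sh-NT, both lower, a separation that 4.11% of all genes showed, and 0 members separated upward (3.59% of all genes). At an unadjusted p under 0.05, 1 member, Lama4, was lower and 0 were higher, beside 0.947% and 1.62% of all genes. Without the 2 libraries that stood apart, 3 members separated downward and 1 upward, beside 7.72% and 6.46% of all genes. The edgeR test called 0.0% of genes (0, with 712 at an unadjusted p under 0.05), and DESeq2 and voom also called 0. The smallest adjusted p of any member was 0.968. The matrix median moved with single libraries: it was -0.12 without sh-Gpc2 library 4, -0.48 without sh-Gpc2 library 2 and -0.18 without sh-NT library 2. The integrin median was positive, 0.03 and 0.02, without sh-NT library 2 and without sh-Gpc2 library 1.

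Between the knockdown groups, 11 of 14 integrins and 11 of 14 matrix genes were lower in sh-Gpc4 than in sh-Gpc2, with medians of -0.16 and -0.15, beside 50.5% of all genes. Itgav and Sparcl1 alone of the 28 separated, both lower in sh-Gpc4 (2.0% of all genes), and 0 separated upward (3.5%). The same 2 were the members lower at an unadjusted p under 0.05 and 0 were higher, beside 1.8% and 1.09% of all genes. With the 2 libraries left out, which leaves 2 against 2, 11 members separated downward and 2 upward, beside 17.5% and 17.8% of all genes. The edgeR test called 0.0% of genes (0, with 804 at an unadjusted p under 0.05), and DESeq2 and voom called 0. Without sh-Gpc4 library 3 only 6 of 14 matrix genes were negative, with a median of 0.01. It was -0.37 without sh-Gpc2 library 4, -0.30 without sh-Gpc4 library 4, -0.26 without sh-Gpc4 library 1 and -0.03 without sh-Gpc2 library 2. The integrin median was -0.31 without sh-Gpc4 library 4.

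GC content moved with the differences among members. The 7 tested members over 55% GC had a median log2 fold change of -0.79 in sh-Gpc4 and -0.29 in sh-Gpc2, while all 4371 tested genes over 55% GC had medians of -0.23 and -0.11. The 8 members under 45% GC had medians of -0.06 and -0.03, against 0.12 and 0.05 for the 6449 genes of that class. The lowest library was one of the 2 that stood apart in 6 of the 7 GC-rich members. The same held for 2674 of all 4371 tested genes over 55% GC. The median log2 deviation of the 7 was -1.56 in sh-Gpc4 library 3 and -0.84 in sh-Gpc2 library 4, against -0.37 and -0.23 for all genes of that class. Over all 28 tested members, sh-Gpc4 library 3 was lowest for 11, sh-Gpc2 library 2 for 6 and sh-Gpc2 library 4 for 4. Under 45% GC, one of the 2 libraries that stood apart was lowest in 2 of 8 members, beside 893 of 6449 genes. At 45 to 55% GC, one of those 2 was lowest in 7 of 13 members, beside 4070 of 11306 genes. With each library's trend on GC removed, 12 of 14 matrix genes and 10 of 14 integrins were negative in sh-Gpc4, beside 53.7% of all genes. The medians were -0.41 and -0.24, beside -0.03 for all genes. That trend was fitted over all genes with a known GC content, not to the members. The part of GC content in the member differences was not tested.

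**Figure D5:**
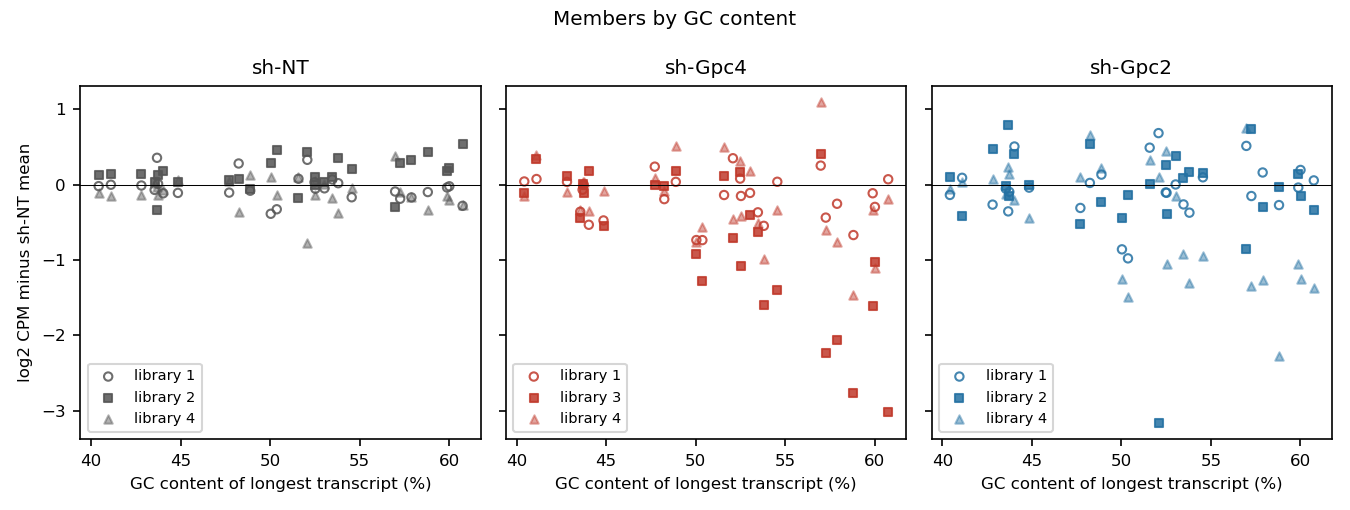
Log2 CPM of each tested member minus its sh-NT mean (vertical axis) by GC content of its longest transcript in percent (horizontal axis), with 1 panel per group and 1 symbol per library. Many members over 55% GC lie far below 0 in sh-Gpc4 library 3 and sh-Gpc2 library 4, and members under 45% GC lie within 1 log2 unit of 0 in all libraries. The low point near 52% GC in sh-Gpc2 library 2 is Itgb3, at 0.0161 CPM.

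Other genes of the adhesion pathway, from lists fixed for this purpose, passed the test in no comparison. In sh-Gpc4 against sh-NT, 47.2% of all genes were negative. Of 9 other integrin subunits 6 were negative (median -0.23), led by Itgam (-0.37 ± 0.20) and Itgae (-0.48 ± 0.27), which belong to leukocyte integrins. Of 17 tested other matrix ligands and proteoglycans, 14 were negative (median -0.34), among them Dag1, the laminin receptor dystroglycan (-0.75 ± 0.28), and Hspg2, the basement membrane proteoglycan perlecan (-1.02 ± 0.39). The sh-NT libraries had 88.2, 107 and 93.4 CPM of Dag1, and those of sh-Gpc4 had 66.2, 39.8 and 65.0 CPM, without overlap. Of 25 adaptors and kinases that act inside the cell at adhesion sites, 18 were negative (median -0.23). Bcar1, a scaffold phosphorylated at focal adhesions, was at -0.47 ± 0.19 and Lims2, a partner of integrin-linked kinase, at -0.98 ± 0.42. Of 15 matrix proteases and inhibitors 10 were negative (median -0.15), led by the membrane-bound metalloproteases Mmp15 (-1.15 ± 0.40) and Mmp14 (-0.46 ± 0.21). All sh-Gpc4 libraries were below sh-NT for 1 of 9, 3 of 17, 11 of 25 and 2 of 15 genes of these lists in that order, beside 13.2% of all genes, and above it for 1 protease or inhibitor. Without the 2 libraries that stood apart, Itgam was at -0.22, Itgae at -0.31 and Mmp14 at -0.30.

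In sh-Gpc2 against sh-NT, 49.3% of all genes were negative. In the same lists 6 of 9, 12 of 17, 15 of 25 and 8 of 15 genes were negative, with medians of -0.09, -0.17, -0.11 and -0.08. The smallest p values there belonged to Itga10 and Itgae, the collagen IV chains Col4a2 (-0.92 ± 0.47) and Col4a1 (-0.45 ± 0.30), Lims2 (-0.88 ± 0.43), Crkl (-0.30 ± 0.17), Mmp16 (-0.20 ± 0.12) and Adamts9 (0.46 ± 0.28). With the 2 libraries left out, Col4a2 was at -0.60, Crkl at -0.16 and Mmp16 at -0.12. Between the knockdown groups, 5 of 9, 12 of 17, 20 of 25 and 11 of 15 were lower in sh-Gpc4, beside 50.5% of all genes. The list medians were -0.08, -0.24, -0.10 and -0.22. Thbs2, a matricellular thrombospondin, was at -1.48 ± 0.48 there, from levels of 0.160 to 0.195 CPM in sh-Gpc4 and 0.353 to 0.758 CPM in sh-Gpc2.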

How the data were processed

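The values are the authors' deposited counts of reads for each gene, made with featureCounts of Subread on GRCm38 (mm10), per the submitters' processing notes. For the aligner, annotation release and strand setting, nothing is given in the sources used here. Exons of 11 members overlap another gene, whose reads cannot be separated. Column numbers do not match the replicate numbers in the titles, so columns carry only their group. GENCODE M21 symbols matched 51486 identifiers.

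Counts of all 9 libraries were fitted in R 4.3.3 with edgeR 4.0.16 (quasi-likelihood test, TMM normalization, default filter, Benjamini-Hochberg adjustment over 27773 genes, threshold 0.05), tested on simulated data. CPM values are TMM-scaled. Intervals use a median of 9.50 degrees of freedom. Alternatives were DESeq2 1.42.0 (size factors, Wald test), limma 3.58.1 voom with sample weights, no filter or more than 5 CPM in at least 3 libraries, only the 2 groups compared, removal of each library, and a replicate block. Members and lists were chosen with earlier results of these data known.

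Named members were, per comparison, the 3 integrins and 3 matrix genes with the smallest p, the 4 of each most abundant per length in sh-NT, and any called by a tool. The other members are given by ranges, counts or differences. Itga3, Itga5 and Lamb1 are described in more detail because their groups separated, and Itgb8, Bcan and Nid2 were added after their values were seen. Up to 2 genes of each other list were named. Same-numbered libraries did not deviate together throughout (7 pairs, r from -0.10 to 0.68), so numbers were not taken as pairs.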

Additional observations from a re-analysis of the deposited data

How the results depend on the processing

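The 3 integrins and 3 matrix genes with the smallest p in each comparison kept their sign under all alternatives run. They were picked by p from these same counts, which favours a stable sign. Other members changed sign over removals of single libraries, such as Itga1 (-0.05 to 0.10) and Itga2 (-0.19 to 0.17) in sh-Gpc4. All alternatives but the DESeq2 tests called 0 genes. DESeq2's Wald test called 45 genes and 1 member for sh-Gpc4 against sh-NT, and 0 to 782 genes without single libraries. Leaving out each library gave median log2 fold changes of -0.19 to -0.08 for integrins and -0.75 to -0.18 for matrix genes. In sh-Gpc2 they were -0.08 to 0.03 and -0.48 to -0.12, and between the knockdown groups -0.31 to -0.13 and -0.37 to 0.01, with 6 to 13 negative matrix genes. With the replicate block by column number, although the numbers did not pair the libraries, 0 genes were called. The matrix median was then -0.10 in sh-Gpc4 and -0.33 in sh-Gpc2. In sh-Gpc4 against sh-NT, 9 of 14 matrix genes and 7 of 14 integrins were then negative, beside 47.2% of all genes. Between the knockdown groups 2 of 14 matrix genes were negative (median 0.12), beside 45.3% of all genes, and the integrin median was -0.01. The integrin median was -0.24 in sh-Gpc4 and -0.12 in sh-Gpc2 after the GC trend was removed. The GC trend, the joint removal of 2 libraries and the DESeq2 fits without each library were chosen after seeing the data. The causes of these shifts were not tested. Depth limits Itga7, Itgb6, Lamc3, Itgb3 and Lama4, which had at most 74 reads in any library.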
